A study of Mus musculus with 16 samples.

Results

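The 10 genes described here are Lrrc32 and 9 core genes of the transforming growth factor-beta (TGF-beta) pathway: the ligand gene Tgfb1, the receptor genes Tgfbr1 and Tgfbr2, the signal transducers Smad2, Smad3 and Smad4, the inhibitory Smad7, and the corepressors Ski and Skil. They were chosen by gene name among the 54532 genes of the deposited count table, and all 10 were present and passed the filter on low counts in each comparison. Lrrc32 was picked from the results for its rise with bead stimulation in these same samples, so its bead contrasts are given as a description with no test.

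The cells were naive CD8+ T cells from C57BL/6J spleen, differentiated for 4 days into TCF1+CD8+ T cells by repeated activation with anti-CD3/CD28 beads in low-dose IL-2 (85 U/ml). They were then kept for 1 h without or with prostaglandin E2 (PGE2, 100 ng/ml), a lipid mediator, and afterwards cultured for 4 h either in 85 U/ml IL-2 alone (unstimulated) or in the same IL-2 with anti-CD3/CD28 beads at 1 bead per cell (stimulated). This gave 4 groups of 4 samples: unstimulated untreated, unstimulated PGE2, stimulated untreated and stimulated PGE2. All 16 samples share the mouse strain, the IL-2 and the earlier bead activation, so the unstimulated cells are previously activated cells and not naive ones, and the model is cultured mouse cells. The labels do not say whether the replicates came from separate mice, and p-values then measure only the spread between these samples, which may be technical.

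TGF-beta is made as a precursor whose propeptide stays wrapped around the mature cytokine and keeps it latent. GARP, the protein encoded by Lrrc32, tethers this latent complex to the cell surface and is best known from activated regulatory T cells, platelets and endothelium. Once released, the cytokine binds the type II receptor (Tgfbr2), which recruits and phosphorylates the type I receptor (Tgfbr1); the type I receptor phosphorylates SMAD2 and SMAD3, and these join SMAD4 and enter the nucleus. SMAD7 blocks the type I receptor, and SKI and SKIL (SnoN) hold SMAD complexes in a repressed state. In T cells the pathway restrains activation and effector differentiation.

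Poly(A) RNA-seq gave summed counts of 22678254 to 42950763 per sample, with a median of 30211840.5. The 7 CD8 T cell markers summed to 2810 to 4799 CPM (counts per 1000000, with the library size of each sample adjusted by its TMM scaling factor). Of the 2 CD4 T cell markers, Cd4 did not exceed 1.87 CPM and Zbtb7b had 10.3 to 34.4 CPM. Tcf7, which encodes TCF1, had 913 to 1540 CPM in unstimulated and 289 to 469 CPM in stimulated samples. Of the other cells known to carry Lrrc32, endothelial markers summed to at most 0.618 CPM, and the 5 platelet and megakaryocyte markers to 1.65 to 4.70 CPM with Pf4 and Ppbp at 0 in all 16 samples. The 3 regulatory T cell markers summed to 24.0 to 31.0 CPM in unstimulated untreated, 36.9 to 41.8 in unstimulated PGE2, 24.8 to 34.98 in stimulated untreated and 38.3 to 49.5 in stimulated PGE2 samples; Foxp3, their defining gene, had 3.09 to 9.07 CPM over all samples, and most of the sum was Ikzf4. In RNA from whole cultures, fewer cells of a type and less RNA per cell cannot be told apart.

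Per unit of transcript length (FPKM, fragments per kilobase scaled for library size), Tgfb1 had the highest mean level of the 10 genes in every group, with 29.3 ± 1.199 FPKM in unstimulated untreated samples (SD, n = 4) and 69.6 ± 5.17 FPKM in stimulated untreated samples. Unstimulated untreated cells placed Tgfbr2 (21.2 ± 3.19 FPKM) and Smad4 (20.2 ± 1.74 FPKM) next, and the ranges of these levels overlapped. Smad2, Smad7, Ski and Smad3 followed between 11.4 and 12.7 FPKM, each overlapping the next in the order. Skil (6.81 ± 0.529 FPKM) and Lrrc32 (6.68 ± 0.517 FPKM) overlapped each other, and Tgfbr1 was lowest at 4.53 ± 0.667 FPKM. After stimulation without PGE2 Lrrc32 stood second at 28.2 ± 1.91 FPKM, above the range of Smad2 (15.7 ± 1.76 FPKM), while Smad7 (4.38 ± 0.215 FPKM) and Tgfbr1 (4.16 ± 0.654 FPKM) were lowest and overlapped. Unstimulated PGE2 samples had Tgfb1 (31.4 ± 0.859 FPKM), Tgfbr2 (27.4 ± 5.34 FPKM) and Smad4 (22.4 ± 3.15 FPKM) on top, each overlapping the next, and Lrrc32 (4.83 ± 0.511 FPKM) and Tgfbr1 (3.22 ± 0.497 FPKM) at the bottom without overlap. Stimulated PGE2 samples had Tgfb1 at 65.6 ± 7.94 FPKM, then Lrrc32 at 21.7 ± 5.49 FPKM, whose range overlapped that of Smad4 (15.8 ± 0.942 FPKM), and at the bottom Smad7 (6.03 ± 0.404 FPKM) and Tgfbr1 (3.41 ± 0.490 FPKM), which did not overlap. The level of Smad2 rests on a gene length of 3549 bases in the deposited table, against 8781 merged exon bases in the GENCODE M21 annotation; for the other 9 genes both lengths were equal.

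**Figure D1:**
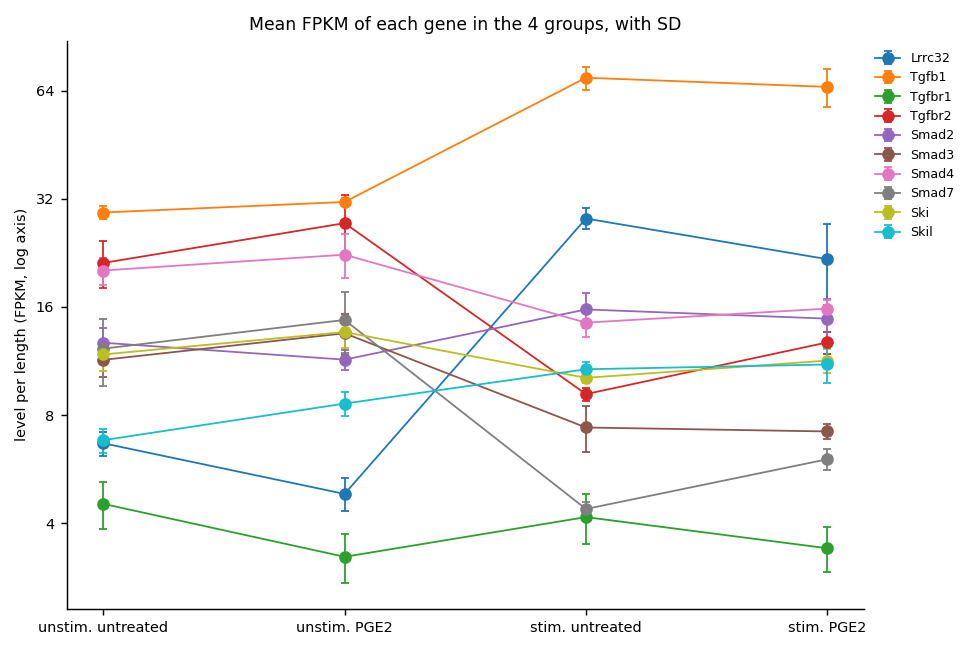
Mean level per length (FPKM, log axis) of the 10 genes in the 4 groups, with SD bars over 4 samples. Tgfb1 has the highest mean in all 4 groups, Lrrc32 moves from 6.68 FPKM in unstimulated to 28.2 FPKM in stimulated untreated samples, and Tgfbr2 and Smad7 lie lower in stimulated than in unstimulated samples.

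Lrrc32 (ENSMUSG00000090958, GRCm38 chr7:98489283-98502181, plus strand) has 4 merged exons, and none of the exon bases of the 10 genes is shared with another annotated gene. Lrrc32 had 31.9, 36.6, 31.9 and 31.3 CPM in the 4 unstimulated untreated samples and 134, 139, 152 and 130 CPM in the 4 stimulated untreated samples. With PGE2 the levels were 26.5, 24.2, 22.5 and 20.8 CPM unstimulated and 128, 123, 109 and 69.3 CPM stimulated. The stimulated samples lay above all unstimulated ones with or without PGE2, and stimulated PGE2 replicate 4 lay apart from the other 3 samples of its group. The log2 difference with beads was 2.06 without PGE2 (4.18-fold) and 2.21 with PGE2 (4.63-fold), the contrast from which the gene was picked.

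The PGE2 contrasts of Lrrc32 were not the ones it was picked by, but they are not independent of the picking. Each shares groups with the bead contrasts, as does the interaction. The same limit holds for the counts below that include Lrrc32. In unstimulated cells Lrrc32 fell with PGE2, by 0.47 on the log2 scale (SE 0.0812, adjusted p = 0.00128, edgeR quasi-likelihood test with Benjamini-Hochberg adjustment over 14505 genes), a 1.39-fold lower level, and the 2 groups did not overlap. In stimulated cells the log2 difference was -0.37 (95% interval -0.73 to -0.01), all 4 PGE2 samples lay below all 4 untreated ones, and the edgeR test did not pass (adjusted p = 0.179). Without stimulated PGE2 replicate 4 this difference was -0.21 (adjusted p = 0.192). With the replicate number as a block it was -0.40 and passed (edgeR adjusted p = 0.015). The higher sum of regulatory T cell markers in the PGE2 groups came from Ikzf4, with group means of 20.7 and 32.9 CPM without and with PGE2 in unstimulated and 25.7 and 38.5 CPM in stimulated cells. Foxp3 had a log2 difference of -0.09 with PGE2 in unstimulated (edgeR adjusted p = 0.861) and 0.03 in stimulated cells (edgeR adjusted p = 0.954), and Cd4 was near 0. The difference between the PGE2 effects in the 2 states was 0.11 (95% interval -0.30 to 0.53, edgeR adjusted p = 0.953).

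The genes whose log2 CPM followed Lrrc32 most closely over the 16 samples, of 12252 genes compared, were Nfkbiz (Pearson r = 0.995), which encodes an atypical inhibitor-of-NF-kappaB family protein, Tmem199 (0.994), Dus1l (0.993), E2f4 (0.991) and Gm16286 (0.991). Nfkbiz had group means of 37.8, 32.7, 125 and 97.9 CPM in unstimulated untreated, unstimulated PGE2, stimulated untreated and stimulated PGE2 samples. Among the other 9 genes the correlation with Lrrc32 was highest for Tgfb1 (0.967) and lowest for Tgfbr2 (-0.94) and Smad7 (-0.938), with Tgfbr1 at 0.187. These values describe 16 samples in 4 groups that differ mainly by the beads, and carry no test.

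Tgfb1 (ENSMUSG00000002603, chr7:25687002-25705077, plus strand), the ligand gene, had 146, 154, 160 and 162 CPM in unstimulated untreated samples and 385, 384, 364 and 342 CPM in stimulated untreated samples. In the PGE2 groups it had 164, 160, 161 and 172 CPM unstimulated and 380, 377, 340 and 295 CPM stimulated. Every stimulated sample lay above every unstimulated one, and the PGE2 and untreated samples overlapped in both states. Tgfb1 rose 2.35-fold with beads without PGE2 (log2 fold change 1.23, SE 0.0753, edgeR adjusted p = 4.47e-08) and 2.14-fold with PGE2 (1.10, SE 0.0932, edgeR adjusted p = 3.71e-06). The PGE2 differences were 0.10 in unstimulated cells (95% interval -0.02 to 0.22, edgeR adjusted p = 0.225) and -0.08 in stimulated cells (95% interval -0.27 to 0.12, edgeR adjusted p = 0.604). With the replicate number as a block the difference in unstimulated cells passed (0.10, edgeR adjusted p = 0.0302), and that in stimulated cells did not (edgeR adjusted p = 0.209).

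The 2 receptor genes responded differently. Tgfbr2 (ENSMUSG00000032440, chr9:116084293-116175360, minus strand) had 216, 189, 171 and 154 CPM in unstimulated untreated samples and 81.5, 75.1, 78.3 and 80.2 CPM in stimulated untreated samples. With PGE2 it had 291, 241, 212 and 186 CPM unstimulated and 105, 103, 110 and 122 CPM stimulated. Stimulated samples lay below all unstimulated samples, and among stimulated samples every PGE2 sample lay above every untreated one. Tgfbr2 fell 2.34-fold with beads without PGE2 (log2 fold change -1.23, SE 0.0941, edgeR adjusted p = 2.22e-07) and 2.09-fold with PGE2 (-1.06, SE 0.116, edgeR adjusted p = 1.74e-05). With PGE2 it rose 1.40-fold in stimulated cells (log2 change 0.49, SE 0.0678, edgeR adjusted p = 0.00219).

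In unstimulated cells Tgfbr2 rose 1.29-fold with PGE2 (log2 fold change 0.37, SE 0.127, edgeR adjusted p = 0.0499), although the 2 groups overlapped. The call was lost when unstimulated untreated replicate 2, 3 or 4 was left out (0.40, 0.34 and 0.29 with edgeR adjusted p of 0.085, 0.117 and 0.123) and without unstimulated PGE2 replicate 1, 2 or 3 (0.26, 0.36 and 0.40 with edgeR adjusted p of 0.115, 0.112 and 0.0699). Within each replicate number the PGE2 sample was higher, by 0.28 to 0.43 on the log2 scale, and with the number as a block the edgeR adjusted p was 3.28e-07.

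Tgfbr1 (ENSMUSG00000007613, chr4:47353222-47414931, plus strand), the type I receptor, had 36.8, 31.6, 26.0 and 30.1 CPM in unstimulated untreated and 32.5, 31.1, 24.4 and 26.1 CPM in stimulated untreated samples. Its PGE2 levels were 25.4, 23.8, 17.9 and 20.3 CPM unstimulated and 26.8, 25.2, 21.6 and 20.03 CPM stimulated. All unstimulated PGE2 samples lay below all unstimulated untreated ones, by a margin narrower than the spread within either group. Tgfbr1 fell 1.40-fold with PGE2 in unstimulated cells (log2 change -0.49, SE 0.116, edgeR adjusted p = 0.00893), opposite in sign to Tgfbr2. In stimulated cells the difference was -0.28 (95% interval -0.55 to -0.01, edgeR adjusted p = 0.173), and -0.28 with adjusted p = 0.00323 when the replicate number was a block in the edgeR fit.

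With beads Tgfbr1 did not pass the test, with a log2 difference of -0.13 without PGE2 (95% interval -0.39 to 0.13, edgeR adjusted p = 0.361) and 0.12 with PGE2 (-0.17 to 0.41, edgeR adjusted p = 0.441). The latter was -0.01 under upper-quartile scaling and without unstimulated PGE2 replicate 3. As a description, the ratio of Tgfbr2 to Tgfbr1 FPKM was 4.70 ± 0.478 in unstimulated untreated, 8.495 ± 0.990 in unstimulated PGE2, 2.24 ± 0.320 in stimulated untreated and 3.83 ± 0.798 in stimulated PGE2 samples (SD, n = 4). The ratio was thus highest in unstimulated PGE2 samples, at 7.31 to 9.45, and lowest in stimulated untreated samples, at 1.93 to 2.57.

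The promoters of the ligand and the 2 receptors are shown because these 3 genes moved in 3 different ways. They are RefSeq windows on GRCm38.p6 of 300 bases, 250 before the start site and 50 from it on, 5′ to 3′ on the strand of the gene, at chr7:25686752-25687051 (plus strand), chr4:47352972-47353271 (plus strand) and chr9:116175314-116175613 (minus strand). Such windows were taken for 5 of the 10 genes (Tgfb1, Tgfbr1, Tgfbr2, Smad3 and Ski). Tgfbr1 had a further window at a start site inside the gene. Not every other gene was looked up, so a gene missing here may still have a window. Capitals mark GGAAA or its reverse complement TTTCC, the core of NFAT sites.
Tgfb1: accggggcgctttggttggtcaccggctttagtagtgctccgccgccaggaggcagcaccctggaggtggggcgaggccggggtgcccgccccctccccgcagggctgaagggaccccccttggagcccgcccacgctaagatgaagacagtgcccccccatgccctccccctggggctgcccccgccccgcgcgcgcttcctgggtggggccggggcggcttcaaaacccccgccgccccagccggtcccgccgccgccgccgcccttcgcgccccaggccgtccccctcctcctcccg
Tgfbr1: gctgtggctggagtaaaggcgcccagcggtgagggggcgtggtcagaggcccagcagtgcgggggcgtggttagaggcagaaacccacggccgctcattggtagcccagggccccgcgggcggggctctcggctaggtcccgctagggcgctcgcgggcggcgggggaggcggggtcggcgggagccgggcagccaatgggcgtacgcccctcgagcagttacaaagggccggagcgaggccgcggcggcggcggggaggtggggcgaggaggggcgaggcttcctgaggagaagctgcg
Tgfbr2: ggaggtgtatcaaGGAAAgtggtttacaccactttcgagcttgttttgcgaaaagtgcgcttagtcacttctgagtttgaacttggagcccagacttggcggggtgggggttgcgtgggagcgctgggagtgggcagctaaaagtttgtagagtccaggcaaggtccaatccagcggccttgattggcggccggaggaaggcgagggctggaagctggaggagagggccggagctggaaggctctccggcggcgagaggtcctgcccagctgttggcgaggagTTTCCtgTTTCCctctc

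Motifs were searched on both strands. GGAAA was found at 3 places in the Tgfbr2 window, at -237, 34 and 41 from the start site, and at 2 places in that of Smad3, and 61.3% of all 32851 windows held it. CAGACA, a SMAD-binding element present in 21.0% of windows, was found in the inner Tgfbr1 window, at -203. TGANTCA (AP-1, 7.81% of windows), TGACGTCA (the cyclic AMP response element, 1.79%) and its short form TGACG (20.8%), which lies within the full element, had no match in the 6 windows of these 5 genes. The first Tgfbr1 window was 74.7% G or C, that of Tgfb1 77.0% and that of Tgfbr2 59.0%, beside a median of 52.7% over all windows. These matches describe letters in these windows and were not tested as sites.

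**Figure D2:**
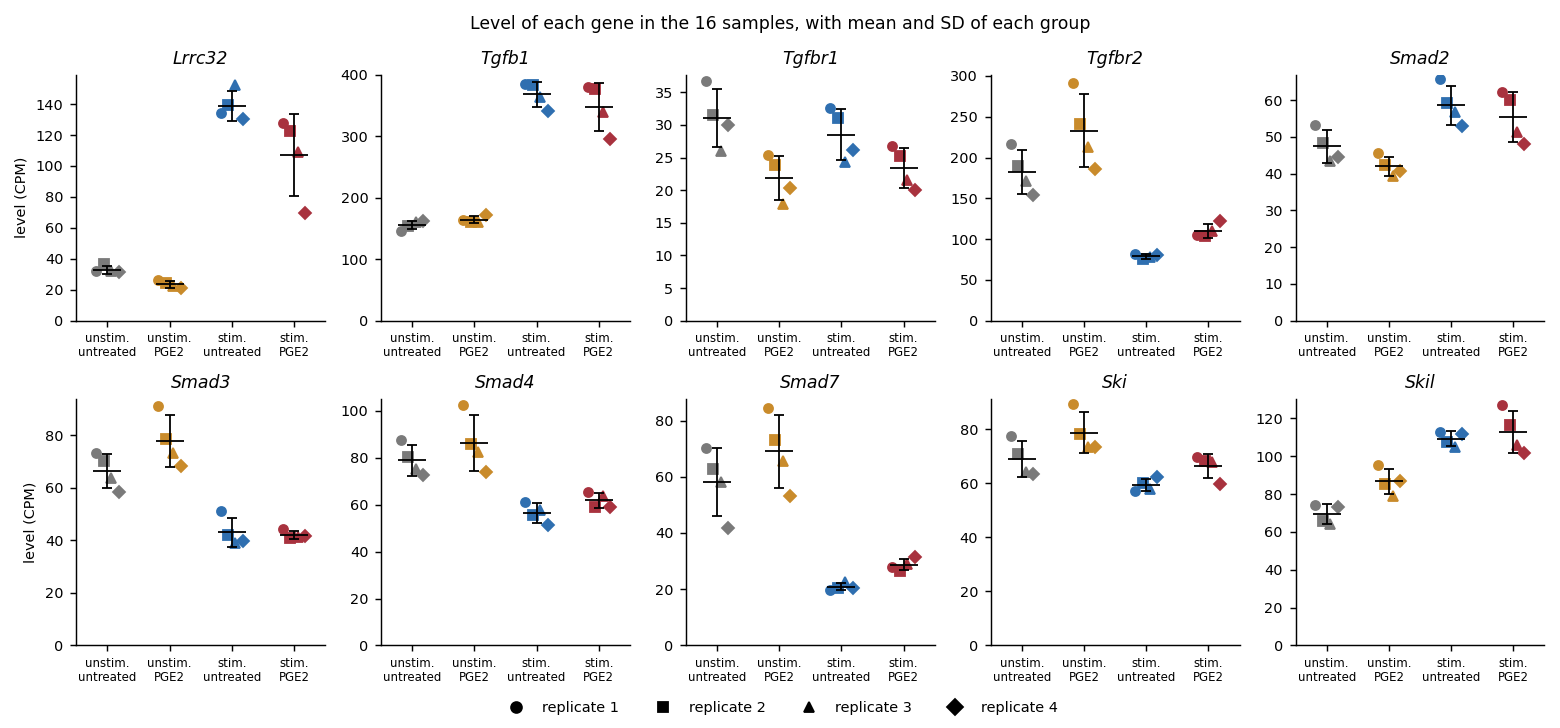
Level in CPM of each of the 10 genes in the 16 samples, with the mean and SD of each group of 4 in black and marker shapes for replicate numbers. Lrrc32, Tgfb1 and Skil lie higher and Tgfbr2, Smad3, Smad4 and Smad7 lower in the stimulated samples, without overlap between stimulated and unstimulated samples for untreated cells.

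Among the signal transducers, Smad2 and its partners moved apart with beads. Smad2 (ENSMUSG00000024563, chromosome 18) had 53.3, 48.5, 43.5 and 44.6 CPM in unstimulated untreated and 65.7, 59.1, 56.9 and 53.0 CPM in stimulated untreated samples, which overlapped slightly. With PGE2 it had 45.6, 42.3, 39.5 and 40.8 CPM unstimulated and 62.3, 60.0, 51.4 and 48.1 CPM stimulated. Smad2 rose 1.23-fold with beads without PGE2 (log2 fold change 0.30, SE 0.0903, edgeR adjusted p = 0.0111) and 1.33-fold with PGE2 (0.42, SE 0.0985, edgeR adjusted p = 0.00336).

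Smad3 (ENSMUSG00000032402, chr9:63646767-63757994, minus strand) had 73.1, 70.3, 63.7 and 58.5 CPM in unstimulated untreated and 51.0, 41.9, 39.0 and 39.9 CPM in stimulated untreated samples. Cells given PGE2 had 91.0, 78.6, 73.3 and 68.2 CPM unstimulated and 44.3, 40.9, 41.3 and 41.5 CPM stimulated. Every stimulated sample lay below every unstimulated one. Smad3 fell 1.55-fold with beads without PGE2 (log2 fold change -0.64, SE 0.103, edgeR adjusted p = 0.000133) and 1.83-fold with PGE2 (-0.87, SE 0.0873, edgeR adjusted p = 9.96e-06).

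Smad4 (ENSMUSG00000024515, chromosome 18), the common partner, had 87.4, 80.2, 75.3 and 72.6 CPM in unstimulated untreated and 61.2, 55.6, 57.6 and 51.3 CPM in stimulated untreated samples. The PGE2 groups had 102, 85.7, 82.5 and 74.1 CPM unstimulated and 65.6, 59.2, 63.7 and 59.0 CPM stimulated. The stimulated samples were again all lower. Smad4 fell 1.41-fold with beads without PGE2 (log2 fold change -0.49, SE 0.0818, edgeR adjusted p = 0.000155) and 1.38-fold with PGE2 (-0.46, SE 0.0932, edgeR adjusted p = 0.00127).

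The PGE2 differences of the 3 transducers were smaller. In unstimulated cells they were -0.15 for Smad2 (95% interval -0.31 to -0.0011), 0.25 for Smad3 (0.05 to 0.44) and 0.15 for Smad4 (-0.04 to 0.34) on the log2 scale, with edgeR adjusted p of 0.126, 0.0565 and 0.242. Within every replicate number Smad2 was lower and Smad3 and Smad4 were higher with PGE2, and with the number as a block all 3 passed (edgeR adjusted p of 0.0104, 4.02e-05 and 0.00549). Smad3 also passed in 6 other alternatives, among them without unstimulated untreated replicate 1 (0.29, edgeR adjusted p = 0.0434) and without unstimulated PGE2 replicate 4 (0.30, edgeR adjusted p = 0.0238). In stimulated cells none of the 3 passed, with differences of -0.07, -0.03 and 0.14; Smad4 passed with the block (edgeR adjusted p = 0.0222).

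Of the inhibitors, Smad7 had the largest fall with beads of the 9 tested genes in both bead comparisons. Smad7 (ENSMUSG00000025880, chromosome 18) had 70.2, 62.7, 58.1 and 41.7 CPM in unstimulated untreated and 19.8, 20.4, 22.7 and 20.5 CPM in stimulated untreated samples. With PGE2 it had 84.3, 73.2, 65.5 and 53.3 CPM unstimulated and 28.1, 26.5, 28.9 and 31.4 CPM stimulated. The stimulated samples lay below all unstimulated ones, and among them the PGE2 samples lay above the untreated ones without overlap.

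Smad7 fell 2.82-fold with beads without PGE2 (log2 fold change -1.49, SE 0.132, edgeR adjusted p = 7.08e-07) and 2.38-fold with PGE2 (-1.25, SE 0.121, edgeR adjusted p = 7.85e-06). It rose 1.38-fold with PGE2 in stimulated cells (log2 change 0.47, SE 0.0817, edgeR adjusted p = 0.0069). In unstimulated cells the difference was 0.27 (95% interval -0.07 to 0.61, edgeR adjusted p = 0.231), with the PGE2 sample higher in all 4 replicate numbers and edgeR adjusted p = 3.14e-05 with the number as a block.

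The related corepressor genes Ski and Skil moved in opposite directions with beads. Ski (ENSMUSG00000029050, chr4:155154075-155222592, minus strand) had 77.4, 71.0, 64.2 and 63.4 CPM in unstimulated untreated and 57.3, 60.0, 57.8 and 62.5 CPM in stimulated untreated samples. PGE2-treated samples had 89.5, 78.3, 73.6 and 73.3 CPM unstimulated and 69.7, 68.4, 67.9 and 59.8 CPM stimulated. The stimulated levels lay just below the unstimulated ones in both comparisons. Ski fell 1.17-fold with beads without PGE2 (log2 fold change -0.23, SE 0.0736, edgeR adjusted p = 0.0149) and with PGE2 (-0.23, SE 0.0833, edgeR adjusted p = 0.0342). The first call was lost without unstimulated untreated replicate 1 (-0.18, edgeR adjusted p = 0.0517), and the second without unstimulated PGE2 replicate 2 (-0.23, edgeR adjusted p = 0.0683) and without stimulated PGE2 replicate 4 (-0.17, edgeR adjusted p = 0.0869). Neither passed with DESeq2 (adjusted p of 0.0666 and 0.0549).

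Skil (ENSMUSG00000027660, chr3:31095058-31122577, plus strand) had 74.5, 65.9, 63.95 and 73.3 CPM in unstimulated untreated and 113, 108, 105 and 112 CPM in stimulated untreated samples. Those with PGE2 had 95.5, 85.4, 79.0 and 86.8 CPM unstimulated and 127, 116, 106 and 102 CPM stimulated. All stimulated samples were higher, and all unstimulated PGE2 samples lay above all unstimulated untreated ones. Skil rose 1.56-fold with beads without PGE2 (log2 fold change 0.64, SE 0.0696, edgeR adjusted p = 4.08e-06), 1.32-fold with beads after PGE2 (0.40, SE 0.0896, edgeR adjusted p = 0.00248) and 1.27-fold with PGE2 in unstimulated cells (0.34, SE 0.0655, edgeR adjusted p = 0.00257).

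In stimulated cells the PGE2 difference of Skil was 0.05 (95% interval -0.12 to 0.22, edgeR adjusted p = 0.687). For Ski it was 0.21 in unstimulated cells (95% interval 0.04 to 0.37, edgeR adjusted p = 0.0593) and 0.17 in stimulated cells (0.01 to 0.32, edgeR adjusted p = 0.15), and both passed with the replicate number as a block (edgeR adjusted p of 0.00014 and 0.0413). Ski in unstimulated cells also passed without unstimulated untreated replicate 1 (0.26, edgeR adjusted p = 0.025) and without unstimulated PGE2 replicate 4 (0.24, edgeR adjusted p = 0.0494).

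**Figure D3:**
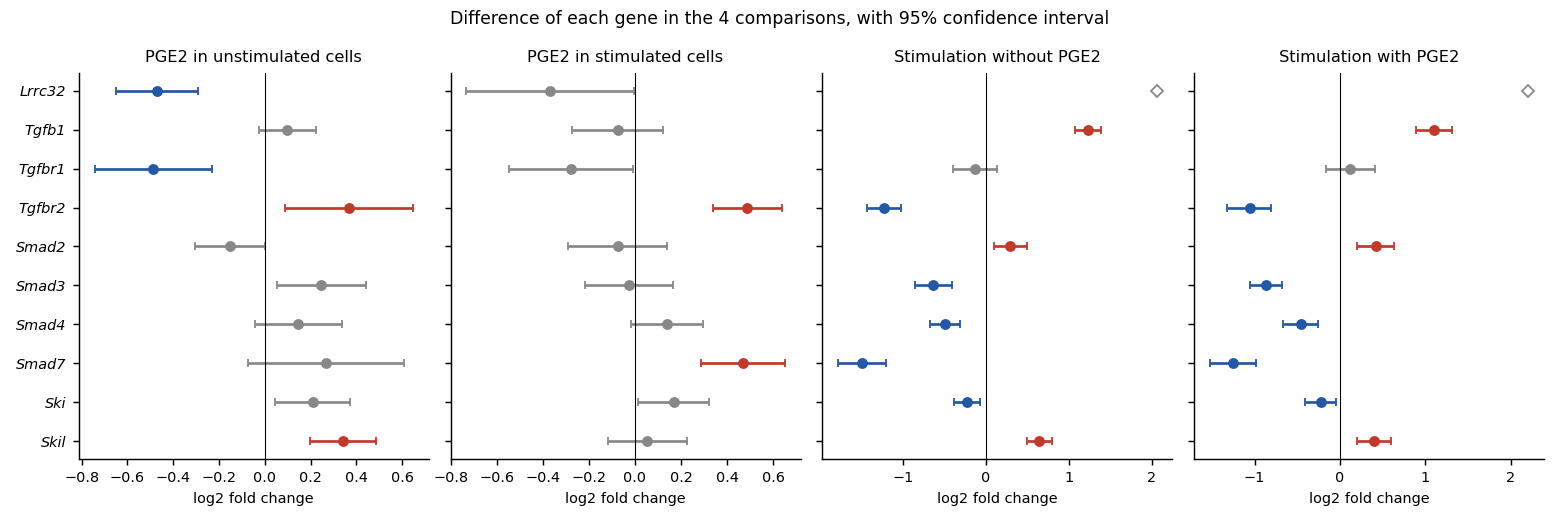
Log2 fold change of each gene in the 4 comparisons, with 95% confidence intervals; filled red or blue points passed the adjusted p threshold of 0.05 upward or downward, grey points did not, and open diamonds give the bead contrasts of Lrrc32, which carry no test. Bead differences reach from -1.49 (Smad7) to 1.23 (Tgfb1) among the tested genes, while those with PGE2 stay between -0.49 and 0.49.

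Counted together, 3 of the 9 tested genes rose with beads without PGE2 (Tgfb1, Smad2 and Skil) and 5 fell (Tgfbr2, Smad3, Smad4, Smad7 and Ski), beside 31.7% and 34.8% of all 14205 genes tested. With the study's further requirement of a fold change of at least 2, 3 of 9 (Tgfb1, Tgfbr2 and Smad7) were differentially expressed, beside 23.2% of all genes. With PGE2 the same 3 rose and the same 5 fell, beside 32.5% and 31.7% of 14507 genes, and the same 3 passed the fold change, beside 22.1%. The groups did not overlap for 7 of 9 genes without PGE2 and 8 of 9 with PGE2, beside 61.6% and 60.2% of all genes. The 2 bead comparisons use separate samples; each shares 1 group with each PGE2 comparison.

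PGE2 in unstimulated cells raised 2 of the 10 genes (Tgfbr2 and Skil) and lowered 2 (Lrrc32 and Tgfbr1), beside 12.9% and 15.5% of 14505 genes; none reached a fold change of 2, beside 3.38% of genes, and the groups did not overlap for 3 of 10, beside 28.9%. In stimulated cells PGE2 raised 2 of 10 (Tgfbr2 and Smad7), beside 6.04% of 13922 genes. It lowered 0 of 10 by edgeR, beside 3.80%. DESeq2 and limma on FPKM each called 2 of 10, beside 2066 of the 25904 genes with any count and 1038 of 11102 genes. The DESeq2 share is over a wider set of genes than the edgeR shares. An unadjusted edgeR p below 0.05 in either direction was found for 5 of 10, and the share of all genes below it was not computed. None of the 10 reached a fold change of 2 in stimulated cells, beside 1.75% of genes, and the groups did not overlap for 3 of 10, beside 17.9%.

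With the replicate number as a block, all 10 genes passed in unstimulated cells (7 higher, 3 lower), beside 47.8% of all genes (23.6% higher, 24.2% lower), and 6 of 10 in stimulated cells (4 higher, 2 lower), beside 39.8% of all genes (19.1% higher, 20.7% lower). In unstimulated cells all 4 replicate numbers moved the same way for each of the 10 genes. In stimulated cells this held for 6 genes, Lrrc32, Tgfb1 and Tgfbr1 being lower and Tgfbr2, Smad4 and Smad7 higher with PGE2 in all 4 numbers. The share of all genes whose 4 numbers agree in sign was not computed, so these counts only describe the 10 genes.

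**Figure D4:**
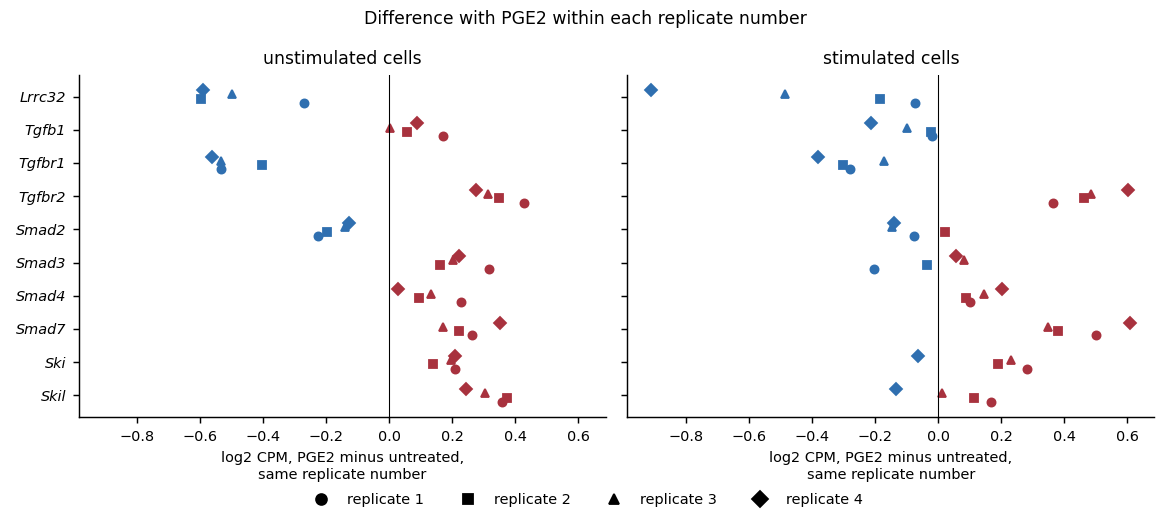
Difference in log2 CPM between the PGE2 and the untreated sample of the same replicate number, for unstimulated (left) and stimulated (right) cells, red above 0 and blue below. All 4 numbers agree in sign for each of the 10 genes on the left, and the share of all genes that do so was not computed. On the right Lrrc32 ranges from -0.91 (replicate 4) to -0.07 (replicate 1).

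Whether the PGE2 effect differed between stimulated and unstimulated cells was tested as an interaction over all 16 samples. It passed for 0 of the 10 genes by edgeR, DESeq2 or limma on FPKM, beside 0.517% of 15096 genes with a higher and 0.232% with a lower PGE2 effect in stimulated cells (0.232% with a difference of at least 2-fold). Skil alone had an unadjusted p below 0.05, with a difference of -0.28 (95% interval -0.51 to -0.04, edgeR adjusted p = 0.408), followed by Smad3 with -0.26 (-0.56 to 0.03, edgeR adjusted p = 0.624). Across the 10 genes the 95% intervals of this difference reached from -0.56 to 0.63.

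The other genes of the pathway were taken as 9 lists with 91 genes. Of the 70 tested with beads without PGE2, 24 rose and 26 fell, beside 31.7% and 34.8% of all genes (median log2 fold change 0.00, all genes -0.03). Of 71 with PGE2, 23 rose and 25 fell, beside 32.5% and 31.7% of all genes (median -0.02, all genes 0.00). With PGE2, 19 rose and 8 fell of 70 in unstimulated cells, beside 12.9% and 15.5% of all genes (median 0.14, all genes 0.00), and 11 rose and 6 fell of 69 in stimulated cells, beside 6.04% and 3.80% (median 0.09, all genes -0.01). With the replicate number as a block 47 of 70 and 43 of 69 passed in the PGE2 comparisons, beside 47.8% and 39.8% of all genes. The same shares of all genes stand beside each list below. The interaction passed for 0 of 72 by edgeR, DESeq2 or limma on FPKM. Of these 72, 7 had an unadjusted edgeR p below 0.05, and the share of all genes below it was not computed.

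Of the 14 genes listed that hold, free or activate latent TGF-beta, 7 were tested with beads without PGE2, and 4 rose and 1 fell (median 0.48), beside 31.7% and 34.8% of all genes. Furin, the protease that cleaves the TGF-beta precursor, rose by 2.92 (SE 0.117, edgeR adjusted p = 6.52e-09). Itgav, the alpha-v integrin chain that takes part in releasing the latent cytokine, rose by 1.70 (SE 0.117, edgeR adjusted p = 1.04e-07). Nrros, which encodes an LRRC32-related protein that also tethers latent TGF-beta, rose by 1.05 (SE 0.0806, edgeR adjusted p = 2.2e-07). Emilin1, whose product binds the precursor outside the cell, fell by 0.84 (SE 0.107, edgeR adjusted p = 1.72e-05). With PGE2 the same 4 genes changed by 2.28, 1.51, 1.15 and -0.93, and all passed.

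PGE2 moved Nrros the other way. It fell by 0.52 in unstimulated cells (SE 0.0773, edgeR adjusted p = 5e-04) and by 0.46 in stimulated cells (SE 0.122, edgeR adjusted p = 0.0406), and its list had 2 higher and 1 lower of 6 in unstimulated (5 past with the block) and 1 lower of 7 in stimulated cells (4 past with the block). The call of Nrros in stimulated cells was lost in 7 of 18 alternatives. Emilin1 rose by 0.44 with PGE2 in unstimulated cells (SE 0.0853, edgeR adjusted p = 0.0027) and Furin by 0.22 (SE 0.0668, edgeR adjusted p = 0.029). The Furin call was lost in 5 of 18 alternatives. In stimulated cells the PGE2 difference of Furin was -0.46 (95% interval -0.94 to 0.02), which did not pass (edgeR adjusted p = 0.203). With the block it was -0.51 and passed (edgeR adjusted p = 0.00267). Of the ligand list, 1 of 4 passed in unstimulated cells (3 with the block): Tgfb3, with group means of 1.16 CPM untreated and 3.38 CPM with PGE2, rose by 1.56 (SE 0.362, edgeR adjusted p = 0.00778). In stimulated cells the PGE2 difference of Tgfb3 was 1.57 (95% interval 0.33 to 2.81), which did not pass (edgeR adjusted p = 0.104) and did with the block (edgeR adjusted p = 0.000125). By edgeR 0 of 3 ligands passed there (2 with the block), and 0 of 4 did with beads without PGE2 (1 with the block, beside 72.3% of all genes).

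Of the other receptors and co-receptors 4 of 9 tested fell and 1 rose with beads without PGE2. Acvrl1 and Acvr1b, which encode type I receptors of the family, fell by 1.29 and 0.77, and Eng and Tgfbr3, the co-receptors endoglin and betaglycan, fell by 0.77 and 0.73. With PGE2 present 5 of 10 fell and 1 rose with beads. PGE2 raised 3 of 10 in unstimulated cells (7 past with the block), among them Acvr2a, an activin type II receptor gene, by 0.88 (SE 0.142, edgeR adjusted p = 0.000824) and Acvr1b by 0.18 (SE 0.0602, edgeR adjusted p = 0.049). In stimulated cells 0 of 9 passed by edgeR and 5 with the block. Of the other SMADs tested, Smad1 fell by 0.34 and Smad5 rose by 0.32 with beads without PGE2, and neither passed in a PGE2 comparison.

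SMAD partners and corepressors rose with PGE2 where they passed the test. Zeb1, a zinc finger repressor that binds SMADs, rose with PGE2 by 1.23 in unstimulated (SE 0.0874, edgeR adjusted p = 5.41e-06) and by 0.99 in stimulated cells (SE 0.0807, edgeR adjusted p = 0.000146). Tgif1, a SMAD corepressor, rose by 0.41 with PGE2 in unstimulated cells (SE 0.0633, edgeR adjusted p = 0.000616). Ep300, a coactivator, rose by 0.30 in unstimulated and 0.37 in stimulated cells, and the related Crebbp by 0.28 in stimulated cells. The Ep300 calls were lost in 7 and 2 of 18 alternatives, and that of Crebbp in 9 of 18. In this list 3 of 10 rose and 0 fell in each PGE2 comparison (6 and 7 past with the block), while with beads without PGE2 3 rose and 6 fell. Zeb2 rose with beads by 4.32, Tgif2 by 1.51 and Tgif1 by 1.05, and Ep300 fell by 1.04.

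Among genes for turnover of receptors and SMADs, 5 of 16 rose and 1 fell with PGE2 in unstimulated cells, beside 12.9% and 15.5% of all genes (11 past with the block, beside 47.8%). In stimulated cells 2 of 16 rose, beside 6.04% (11 past with the block, beside 39.8%). Pmepa1, itself a TGF-beta target whose product restrains SMAD2 and SMAD3, rose by 1.12 (SE 0.0884, edgeR adjusted p = 9.08e-06) and 0.75 (SE 0.0715, edgeR adjusted p = 0.000324). Nedd4l, a ubiquitin ligase gene, rose by 0.36 in stimulated cells. Usp11, a deubiquitinase, rose by 0.49 and Ldlrad4 by 0.41, and Strap, which stabilises the SMAD7 block of the receptor, fell by 0.42 in unstimulated cells. With beads without PGE2, 4 rose and 8 fell of 16: Ldlrad4, a SMAD inhibitor related to Pmepa1, fell by 1.57, Usp11 by 0.79, and Fkbp1a, which binds the type I receptor, rose by 1.07 and Strap by 0.92. Of the 6 SMAD-independent kinase genes and adaptors, 2 rose and 2 fell with beads, with Map3k1 falling by 1.05, Tab2 by 0.19, Tab3 rising by 0.30 and Traf6 by 0.27. With PGE2, Map3k1 rose by 0.31 in unstimulated cells, as 1 of 6 (3 past with the block), and in stimulated cells 2 of 6 rose, Map3k1 by 0.41 and Tab2 by 0.27. The Map3k1 calls were lost in 8 of 18 alternatives in unstimulated and 7 of 18 in stimulated cells, and that of Tab2 in 8 of 18.

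Genes known to rise with TGF-beta moved in both directions. Of the 8 tested, 3 rose and 3 fell with beads without PGE2, with Rgs16 (4.60) higher and Cdkn1b (-2.60) and Cd101 (-1.66) lower. PGE2 raised 2 and lowered 1 of them in unstimulated cells (5 past with the block) and raised 2 and lowered 2 in stimulated cells. Itgae, the CD103 integrin chain, fell with PGE2 by 1.08 in unstimulated (SE 0.0773, edgeR adjusted p = 5.63e-06) and by 0.93 in stimulated cells (SE 0.0589, edgeR adjusted p = 4.44e-05). Cdkn1b, which encodes the cell cycle inhibitor p27, rose with PGE2 by 0.34 in unstimulated (SE 0.0994, edgeR adjusted p = 0.0245) and by 1.07 in stimulated cells (SE 0.263, edgeR adjusted p = 0.0322). Cd101 rose by 0.31 (SE 0.0896, edgeR adjusted p = 0.0249) and 0.76 (SE 0.206, edgeR adjusted p = 0.0441). The calls of Cdkn1b and Cd101 were lost in 9 and 4 of 18 alternatives in unstimulated cells, and in 6 and 10 of 18 in stimulated cells.

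Of 8 CD8 T cell genes known to fall with TGF-beta, 6 rose and 1 fell with beads without PGE2 (median 1.85), led by Ifng (6.54), Eomes (2.97), Gzmb (2.80) and Prf1 (1.89). PGE2 lowered 5 and raised 2 in unstimulated cells (median -0.63), with Ifng, the interferon-gamma gene, at -2.05 (SE 0.681, edgeR adjusted p = 0.0431, a call lost in 9 of 18 alternatives), Eomes at -1.13 (SE 0.242, edgeR adjusted p = 0.00495) and Id3 at -1.08 (SE 0.16, edgeR adjusted p = 0.000476). In stimulated cells PGE2 lowered 3 and raised 2 (median -0.75; 7 past with the block), with Gzmb, which encodes granzyme B, at -0.91 (SE 0.0684, edgeR adjusted p = 0.000109) and Id3 at -1.37 (SE 0.131, edgeR adjusted p = 0.000324). The 2 that rose in both states were Fasl, the death ligand gene, by 1.88 and 1.49, and Gzma, which encodes granzyme A, by 0.63 and 0.90.

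**Figure D5:**
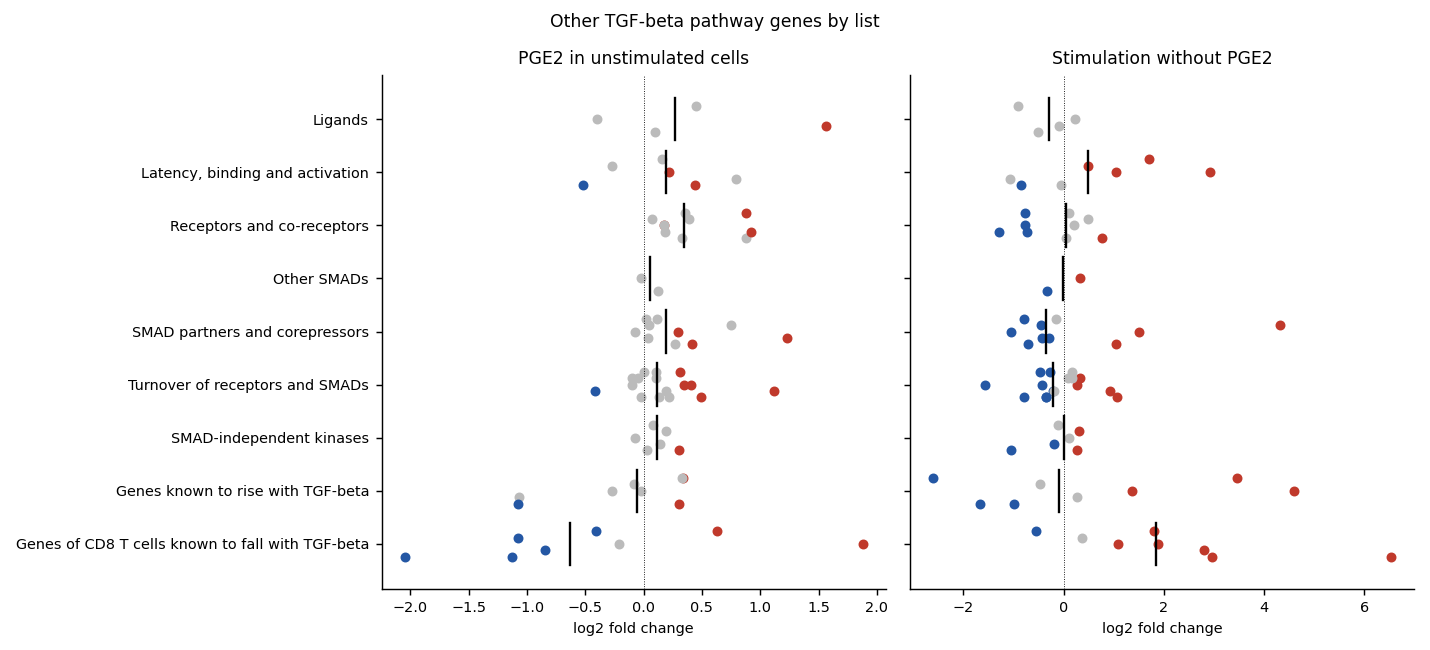
Log2 fold change of the other pathway genes by list, for PGE2 in unstimulated cells (left) and for beads without PGE2 (right); each point is 1 gene, coloured where it passed the adjusted p threshold of 0.05 (red higher, blue lower, grey not past), and black bars are list medians. The list of CD8 T cell genes known to fall with TGF-beta has a median of -0.63 on the left and 1.85 on the right.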

How the data were processed

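RNA-seq of 16 samples in 4 groups of 4 was used as deposited. Per the labels and the study's methods, the authors aligned paired reads with HISAT2 2.0.5 to GRCm38/mm10, made raw counts per gene with featureCounts 1.5.0-p3, derived FPKM from the counts and gene length, and tested with DESeq2 1.20.0. The annotation release and the use of strand are not given in the sources used here. The deposited FPKM values differ from counts scaled by summed count and length by a factor of 0.878 to 1.11 per sample, and no other columns of per-sample values were left out.

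CPM here is the count per 1000000 of the effective library size of its sample. That size is the summed count of the genes past the filter times the TMM scaling factor. Summed counts over all genes were 22678254 to 42950763. Counts were tested with edgeR 4.0.16 in R 4.3.3 (quasi-likelihood test, TMM scaling with factors of 0.88 to 1.09, minimum count 10, two-sided), each pairwise fit holding the 8 samples compared and the interaction all 16. Benjamini-Hochberg adjustment ran over all genes tested, with a threshold of 0.05. Alternatives were other scaling factors, other filters, DESeq2 1.42.0, limma 3.58.1 on log2(FPKM + 1) and log2(FPKM + 0.1), a fold change of at least 2, the replicate number as a block, and each sample left out. The steps were tested on simulated data.

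The 10 genes, the pathway lists and the markers were chosen with earlier results of these data known. From each list and comparison the 4 genes with the largest change past the threshold were named, where their mean reached 1 CPM, except that 1 gene is not reported here and that for beads with PGE2 only 4 genes of 1 list are given beside the counts; Gzma in unstimulated cells and Tgfb3 in stimulated cells were added after their values were seen. Ccn2 is Ctgf in the table. Samples with the same replicate number tended to deviate together from their group means. Their correlations were 0.137 to 0.444 for PGE2 in unstimulated cells, 0.19 to 0.423 in stimulated cells and 0.112 to 0.359 for beads without PGE2. Samples with different numbers reached 0.124, 0.25 and 0.125, so the ranges overlapped except for PGE2 in unstimulated cells. Blocked counts of the 10 genes are given for both PGE2 comparisons, and further blocked values for some genes and lists. For beads without PGE2 the block is given only for the ligand count, and it changed no call of the tested genes among the 10. With beads and PGE2 the lowest same-number correlation was 0.0439. What same-numbered samples share is not stated. Replicates differed beyond counting noise (chi-square per degree of freedom 8.46 to 56.8).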

Additional observations from a re-analysis of the deposited data

Results flagged for a closer look

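Of 40 checks of 10 genes in 4 groups of 4 samples, 1 found a sample far from the other 3 of its group by Dixon's criterion: Lrrc32 in unstimulated untreated replicate 2, at 36.6 CPM beside 31.3 to 31.9 CPM in the other samples. Chance flags about 1 in 20 such groups.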

How the results depend on the processing

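Over the single-gene results of the 10 genes, 934 alternative values were computed, of which 875 kept direction and side of the threshold, 16 lost a call, 20 gained one and 23 changed sign. The number of genes past the threshold became 0, 0, 3 and 3 when a fold change of at least 2 was also required (PGE2 in unstimulated and stimulated cells, beads without and with PGE2). For PGE2 in unstimulated cells it was 2 with limma on log2(FPKM + 1) without a filter and 10 with the replicate block; in stimulated cells it was 6 with the replicate block. The block changed no other call of the 10 genes. The log2 difference of Lrrc32 with beads without PGE2 was 1.93 on the log2(FPKM + 1) scale with or without a filter, which understates changes of low genes. Tgfbr2 with PGE2 in unstimulated cells lost its call in 9 of 18 alternatives, with adjusted p up to 0.23, and Tgfbr1 in 1 (0.0734). Smad3 with PGE2 in stimulated cells ranged from -0.0665 to 0.0785 and Skil from -0.0038 to 0.0984 when single samples were left out. Tgfbr1 with beads and PGE2 was -0.0124 with upper-quartile factors and -0.0102 to 0.199 with samples left out. The interaction of Smad4 was -0.0145 with RLE factors, -0.00803 with upper-quartile factors, -0.0285 without a filter, -0.0151 with DESeq2, -0.00955 on log2(FPKM + 1) with or without a filter, -0.00747 on log2(FPKM + 0.1), and -0.0726 to 0.0886 with samples left out; that of Ski ranged from -0.0808 to 0.0308. The cause was not tested. Upper-quartile scaling shifted the median of all genes by -0.0963 and -0.127 in the bead comparisons without and with PGE2. For the named list genes 1565 of 1682 alternative values kept their call, 117 lost it and 0 changed sign; calls were lost most often for Acvr1b in unstimulated (12 of 18) and Cd101 in stimulated cells (10 of 18) with PGE2.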
